A study of Mus musculus with 2 samples.

Results

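The 32 genes described here are 21 genes of glucose uptake, glycolysis and lactate handling and 11 genes of the response to low oxygen, taken by symbol from the 31055 features of a single-cell RNA-seq data set of irradiated mouse medulloblastoma. The glycolysis list holds the glucose transporters Slc2a1 and Slc2a3, the upper pathway genes Hk1, Hk2, Gpi1, Pfkl, Pfkm, Pfkp, Aldoa, Aldoc and Tpi1, the lower pathway genes Gapdh, Pgk1, Pgam1, Eno1, Eno2 and Pkm, and the lactate genes Ldha, Ldhb, Slc16a1 and Slc16a3. The hypoxia list holds Pdk1, Vegfa, Bnip3, Bnip3l, Egln1, Egln3, Ndrg1, Ankrd37, P4ha1, Adm and Hif1a. All 32 were found, and the summed UMIs (unique molecular identifiers, each counting 1 captured RNA molecule) of the members came to 282724 of 96790238 in the kept cells, 240760 from the glycolysis list and 41964 from the hypoxia list.

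The study compared 2 libraries of tumour-derived cells from Math1-Cre;SmoM2fl/fl mice, 1 after FLASH proton irradiation and 1 after standard proton irradiation. In both, Cre driven by the Math1 (Atoh1) promoter of cerebellar granule neuron progenitors turns on SmoM2, a Smoothened mutant that keeps Hedgehog signalling active, so both libraries carry the same tumour-driving alleles, and there was no unirradiated library. FLASH delivers its dose at an ultra-high rate and standard irradiation at a conventional one. The sample labels give 5 Gy for both and the series design gives 10 Gy, a difference that could not be settled, and neither the time after irradiation nor the number of mice is given. Mice were perfused with EDTA-containing PBS, and the tumours were digested with collagenase-II and DNase, passed through a 100 μm mesh and run on the 10x Genomics V3 chemistry. With 1 library per irradiation mode, cells are not replicates: no p-value is given, and every interval below is a 95% interval for counting error only.

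The FLASH library held 14269 barcodes and the standard library 12867. After filters on genes per barcode, mitochondrial UMIs and doublets, 9506 FLASH and 7888 standard cells were kept, with medians of 5212 and 5571 UMIs per cell and of 3.68% and 3.60% mitochondrial UMIs. Cells were clustered without the members and without the other pathway genes given below, and each class was named for the marker genes it resembles, so that every name stands for a "like" class. The tumour lineage held 7343 FLASH and 5999 standard cells and summed 2500 and 2485 CPM (UMIs of a gene per 1000000 UMIs of the class) of 10 granule progenitor markers such as Atoh1 and Gli1, against 218 and 223 CPM in myeloid cells. It was divided into non-cycling progenitors (2439 FLASH and 1972 standard cells), S phase entry (485 and 365), histone-rich S phase (967 and 647), G2 and mitosis (617 and 488), early postmitotic neurons of step 1 (978 and 841) and step 2 (922 and 769), and later granule neurons (80 and 79). Another 855 FLASH and 838 standard tumour-lineage cells had no state. Myeloid cells numbered 317 and 303, oligodendrocyte-lineage cells 162 and 118, and endothelial cells 50 and 33, while 1522 and 1355 cells of low depth stayed unnamed and were not used further. The libraries shared 46 barcodes, 21 of them in kept cells of both.

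Glycolysis splits glucose to pyruvate through a fixed chain of enzymes, and lactate dehydrogenase turns pyruvate into lactate, which monocarboxylate transporters carry out of the cell. When oxygen is low, the prolyl hydroxylases of the Egln family stop marking HIF-1α for destruction, and the factor switches on glucose transporters, most glycolytic enzymes, Pdk1, Vegfa, Bnip3 and others. Granule neuron progenitors and the Hedgehog-driven tumours that arise from them are known for aerobic glycolysis with hexokinase 2, which maturing granule neurons lose.

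FLASH and standard libraries carried nearly the same level of both lists in tumour-lineage cells. A member was called higher or lower where its level differed by more than 1.5-fold and at least 100 UMIs were counted over both libraries. Of the 32 members 27 reached 100 UMIs in the tumour lineage, and 0 were called, against 0.879% of all 11951 genes that could be compared. The glycolysis list summed to 2397 CPM in FLASH cells and 2418 CPM in standard cells, a log2 ratio of -0.01 (-0.02 to 0.00), and the hypoxia list to 431 and 425 CPM, a log2 ratio of 0.02 (-0.01 to 0.05). Median log2 ratios were 0.00 over the 19 glycolysis genes and 0.02 over the 8 hypoxia genes that reached 100 UMIs, beside 0.00 over all genes; the glycolysis median lay just above 0 and the log2 ratio of the sum just below it.

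**Figure D1:**
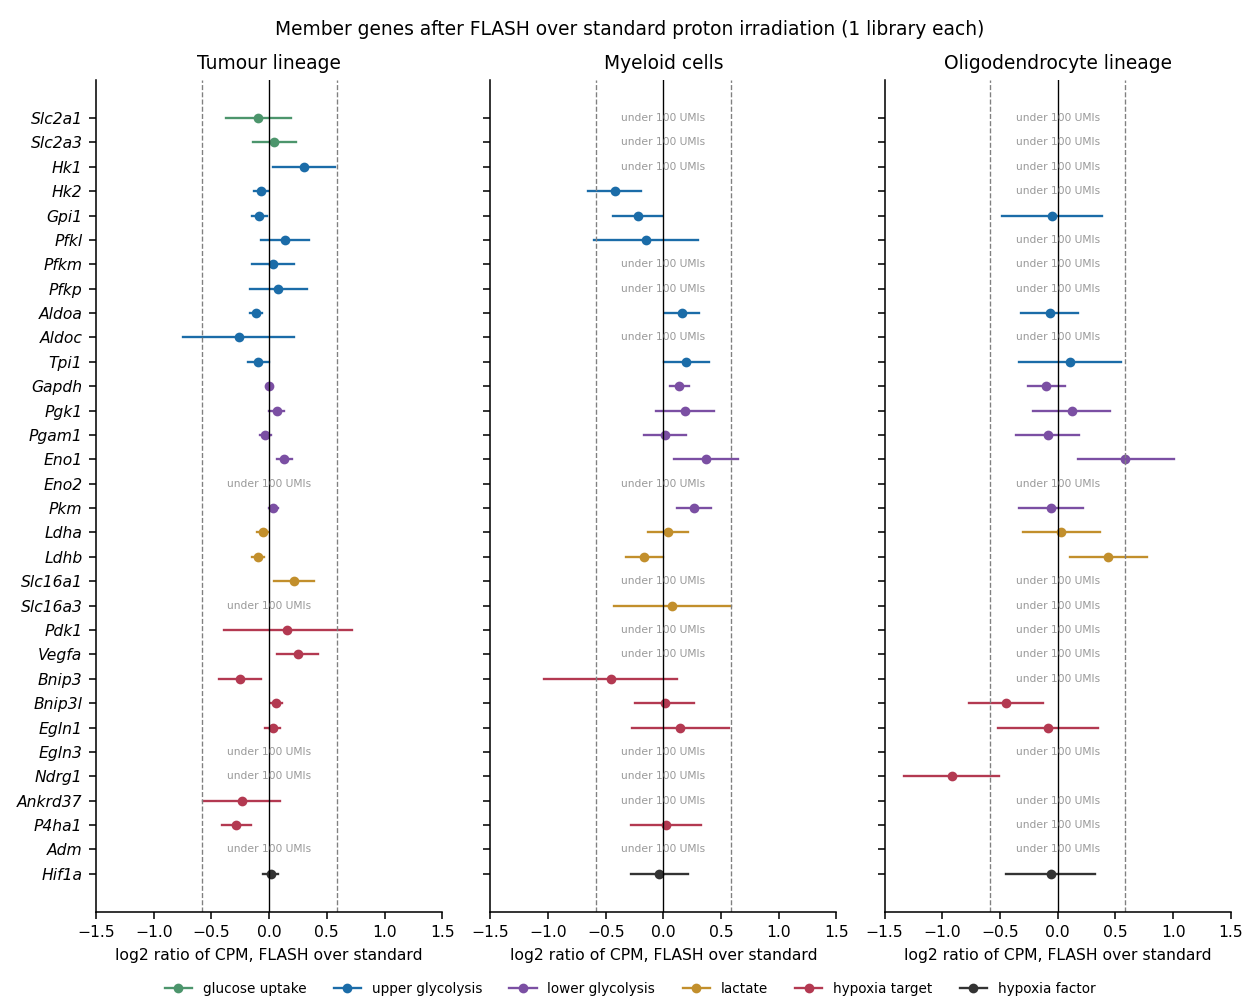
Log2 ratio of the FLASH over the standard library for each member (x axis) in tumour-lineage, myeloid and oligodendrocyte-lineage cells, 1 library each, with 95% counting intervals as bars and the 1.5-fold limits as dashed lines. Every member with at least 100 UMIs stays inside the limits in tumour-lineage and myeloid cells, and Eno1 and Ndrg1 pass them in the oligodendrocyte lineage.

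Single members of the tumour lineage stayed close between the libraries. Gapdh, the dehydrogenase that makes the first NADH of the pathway, was at 963 CPM in FLASH and 962 CPM in standard cells, a log2 ratio of 0.00 (-0.02 to 0.02). Hk2, the hexokinase that traps glucose as glucose-6-phosphate, was at 101 and 106 CPM, Ldha, which makes lactate from pyruvate, at 168 and 175 CPM, and Pkm, the pyruvate kinase, at 310 and 302 CPM. The log2 ratios furthest from 0 among the members with 100 UMIs were 0.30 for Hk1, -0.28 for P4ha1, -0.26 for Aldoc and -0.25 for Bnip3. Hk1, the housekeeping hexokinase, stood at 6.34 CPM in FLASH and 5.14 CPM in standard cells (interval of the log2 ratio 0.04 to 0.57). P4ha1, a collagen prolyl hydroxylase subunit, stood at 23.4 and 28.5 CPM (-0.41 to -0.16), and Bnip3, a mitophagy receptor, at 10.8 and 12.9 CPM (-0.44 to -0.07). None of these passed 1.5-fold. Aldoc, the brain aldolase, had only 1.65 and 1.98 CPM, and its interval of -0.74 to 0.21 included 0.

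The other upper pathway genes were as close. Aldoa, the aldolase that splits fructose-1,6-bisphosphate, was at 139 CPM in FLASH and 151 CPM in standard cells, Gpi1, the glucose-6-phosphate isomerase, at 85.8 and 91.0 CPM, and Tpi1, the triose phosphate isomerase, at 49.7 and 53.0 CPM. The phosphofructokinase genes, which commit sugar to glycolysis, were at 9.46 and 8.60 CPM for Pfkl, 11.8 and 11.5 CPM for Pfkm, and 6.81 and 6.43 CPM for Pfkp. Both glucose transporters were low, with Slc2a1 at 4.87 and 5.19 CPM and Slc2a3 at 12.01 and 11.6 CPM. Lower in the pathway, Pgk1 was at 97.1 CPM in FLASH and 92.7 CPM in standard cells, Pgam1 at 166 and 170 CPM, and Eno1, the enolase of most tissues, at 100.2 and 91.5 CPM. Ldhb, the lactate dehydrogenase subunit that favours pyruvate, was at 150.0 and 161 CPM, and Slc16a1, the monocarboxylate transporter MCT1, at 13.8 and 11.9 CPM.

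The hypoxia members gave the same picture. Vegfa, the endothelial growth factor, was at 13.6 CPM in FLASH and 11.4 CPM in standard cells, a log2 ratio of 0.25 (0.07 to 0.43). Bnip3l, the relative of Bnip3 that is also high in maturing red cells, was at 182 and 175 CPM, the oxygen sensor Egln1 at 97.6 and 95.6 CPM, and the factor Hif1a, which is controlled mainly as a protein, at 95.6 and 94.8 CPM. Pdk1, the kinase that closes pyruvate dehydrogenase, had 1.45 and 1.30 CPM, and Ankrd37 had 3.35 and 3.94 CPM. The 5 members under 100 UMIs were Eno2 (the neuronal enolase), Slc16a3 (the lactate exporter MCT4), Egln3, Ndrg1 and Adm, with 19 to 95 UMIs in all tumour-lineage cells together, too few for a call. No member was called in any single tumour state either, but fewer members reached 100 UMIs there. In later granule neurons only Aldoa and Gapdh did. Of those below 100 UMIs, Slc2a3 had a log2 ratio of 0.90 (0.19 to 1.67) in S phase entry. In G2 and mitosis Slc2a3 was at -0.88 (-1.60 to -0.21) and Bnip3 at -0.97 (-1.98 to -0.06). The share of all genes called was 0.877% in non-cycling progenitors, 1.47% in S phase entry, 1.1% in histone-rich S phase, 1.04% in G2 and mitosis, 0.89% and 0.872% in early postmitotic steps 1 and 2, and 4.66% in later granule neurons.

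Of 30 further glycolysis genes and 40 further hypoxia genes, Loxl2, a lysyl oxidase, was the only one called in the tumour lineage, at 4.31 CPM in FLASH and 7.83 CPM in standard cells.

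Within the tumour lineage, members were called between cell states, where 4.05% to 27.4% of all genes were called in each direction. Between the libraries 0 members and 0.879% of all genes were called, so the share over all genes also differed between these kinds of comparison. State comparisons were made within each library, and a member was called where it passed 1.5-fold in the same direction in both libraries, with at least 100 UMIs over both classes and libraries, so the shared direction of the called members is fixed by the rule and is no finding. All of them share the non-cycling progenitors as their base. In S phase entry 1 glycolysis gene of the 18 with 100 UMIs fell, Aldoa, and 1 hypoxia gene of 7 rose, Vegfa, where 7.1% of all genes rose and 4.05% fell. Aldoa was at 119 CPM in FLASH and 133 CPM in standard S phase entry cells, against 181 and 204 CPM in non-cycling progenitors, which gave log2 ratios of -0.60 and -0.62. Vegfa was at 20.02 and 20.8 CPM, against 11.2 and 9.95 CPM, which gave 0.84 and 1.07. Hk2 had 141 and 161 CPM, against 103 and 114 CPM, short of the 1.5-fold limit. The glycolysis sum was higher than in non-cycling progenitors, with a log2 ratio of 0.19 (0.15 to 0.22) in each library. Without Gapdh the sum gave 0.10 in FLASH and 0.10 in standard cells.

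In histone-rich S phase, where 10.2% of all genes rose and 10.9% fell, Aldoa, Eno1 and Ldhb fell, Bnip3 fell and Vegfa rose. Aldoa was at 50.5 CPM in FLASH and 50.8 CPM in standard cells, with log2 ratios of -1.84 and -2.00. Eno1 was at 80.1 and 73.4 CPM, against 144 and 130 CPM in non-cycling progenitors, and Ldhb at 90.3 and 99.6 CPM, against 160 and 173 CPM. Bnip3 was at 5.85 and 5.86 CPM, against 11.9 and 13.7 CPM, while Vegfa was at 24.0 and 19.9 CPM.

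In G2 and mitosis, 8 of the 18 glycolysis genes with 100 UMIs fell and 0 rose, and 2 of 7 hypoxia genes fell and 0 rose, against 11.3% of all genes that fell and 8.2% that rose. The median log2 ratio was -0.50 over the glycolysis genes and -0.11 over all genes. Aldoa was at 41.9 CPM in FLASH and 39.4 CPM in standard cells, with log2 ratios of -2.11 (-2.31 to -1.93) and -2.37 (-2.58 to -2.17). Pfkl was at 3.48 and 3.20 CPM, against 11.3 and 10.9 CPM, and Gpi1 at 58.6 and 55.6 CPM, against 102 and 108 CPM. Eno1 fell to 72.7 and 68.4 CPM, Ldha to 124 and 139 CPM, against 229 and 230 CPM, and Ldhb to 77.0 and 83.8 CPM. The other called genes were Hk1 and Pfkm at 1.70 to 6.79 CPM, and on the hypoxia side Bnip3 at 2.65 and 5.27 CPM and Ankrd37 at 1.32 and 1.88 CPM. Not every glycolysis gene followed: Hk2 was at 134 CPM in both libraries and Gapdh at 1025 and 1082 CPM, neither past 1.5-fold. The G2 and mitosis cells were also the deepest, with medians of 9777 and 11002 UMIs, against 5728 and 6526 in non-cycling progenitors; with each cell thinned to 2000 UMIs the glycolysis median was -0.79, and with doublets kept -0.30. The further pathway genes in the same cells gave 0 higher and 4 lower of 17 on the glycolysis side and 3 higher and 4 lower of 27 on the hypoxia side, with Sap30, a corepressor subunit, at 162 and 171 CPM, against 46.6 and 47.9 CPM, and Ddit4, an inhibitor of mTORC1 signalling, at 26.7 and 23.7 CPM, against 57.0 and 61.7 CPM.

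**Figure D2:**
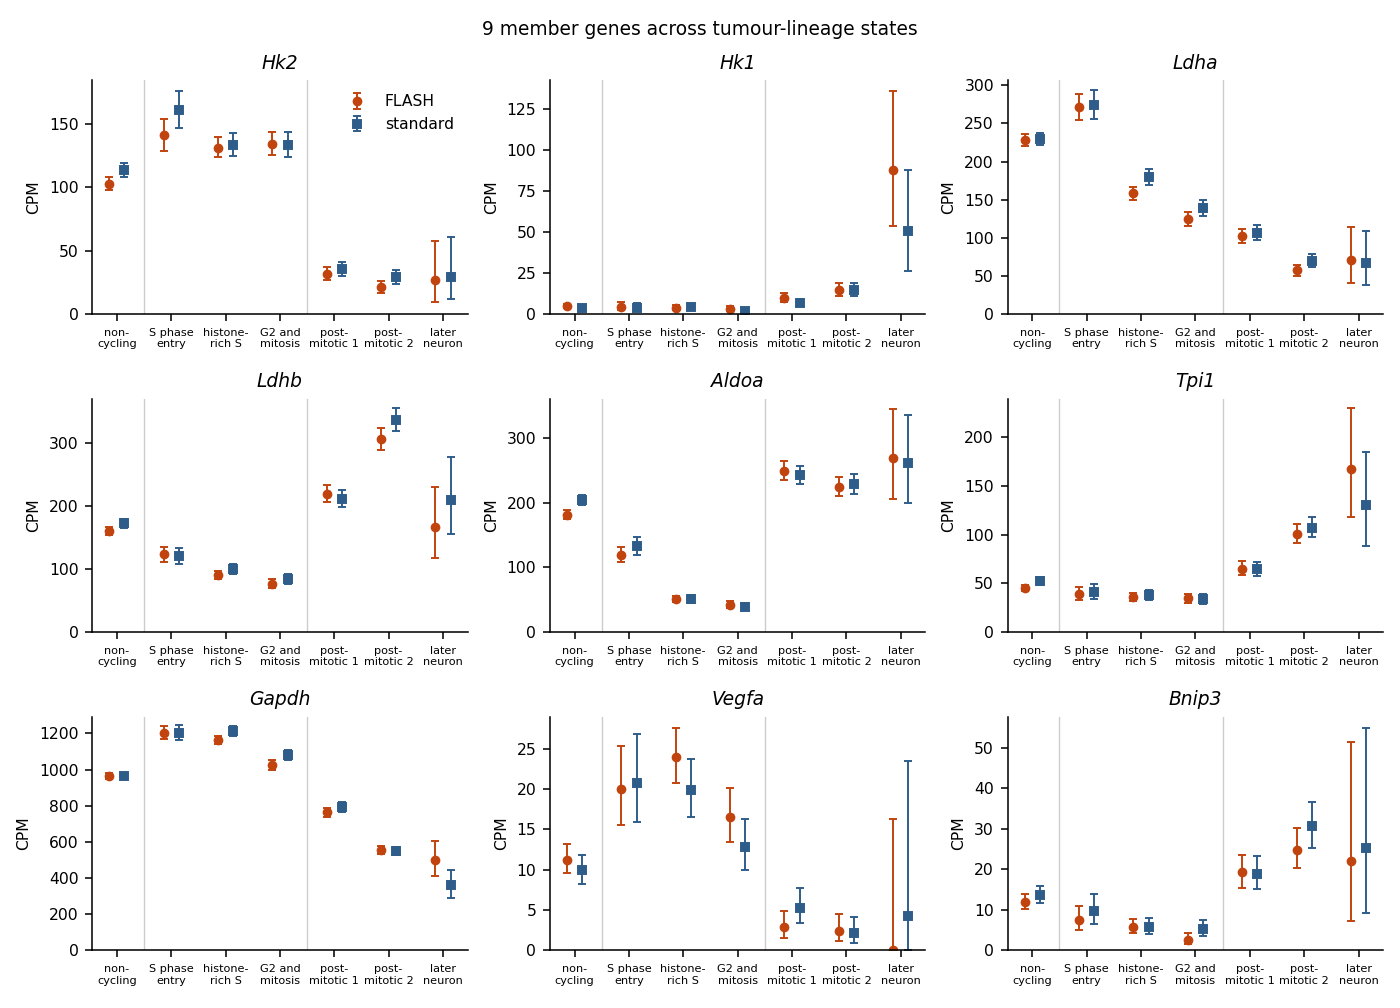
Level in CPM (y axis, from 0) of 9 members in the 7 tumour-lineage states (x axis), FLASH left of standard, 1 library each, with exact Poisson 95% intervals as bars. Aldoa is lowest in G2 and mitosis, and Hk2 is high in the progenitor and cycling states and low in the neuron steps. Ldha is highest in S phase entry, lower in G2 and mitosis and lowest in step 2 or in later granule neurons. Ldhb, Tpi1 and Hk1 are highest in step 2 or in later granule neurons. These patterns hold in both libraries.

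Along the steps to neurons the pathway did not move as a block: members of one isozyme pair went opposite ways. In early postmitotic step 1, where 9.94% of all genes rose and 11.1% fell, Hk1 and Pfkp rose and Slc2a1, Hk2, Eno1, Ldha and Vegfa fell. Hk2 was at 31.3 CPM in FLASH and 35.4 CPM in standard cells, against 103 and 114 CPM in non-cycling progenitors, with log2 ratios of -1.71 and -1.68. Ldha was at 102 and 107 CPM, with log2 ratios of -1.16 and -1.11, and Hk1 at 9.82 and 6.66 CPM, against 4.70 and 3.55 CPM. Pfkp was at 8.57 and 8.74 CPM, against 4.48 and 4.19 CPM. Eno1 was at 78.8 and 66.8 CPM, Slc2a1 at 2.72 and 2.91 CPM, against 5.84 and 5.13 CPM, and Vegfa at 2.93 and 5.20 CPM. The Slc2a1 call rests on 13 and 14 UMIs in step 1, and its log2 ratio ran from -2.01 to -0.08 over the processing settings tried. The drop of Hk2 and Ldha and the gain of Hk1 thus already showed in the first postmitotic step.

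In step 2, where 19% of all genes rose and 18.2% fell, 6 of 18 glycolysis genes rose and 8 fell, and of 7 hypoxia genes Bnip3 rose and Vegfa fell. Median log2 ratios were -0.54 over the glycolysis and -0.06 over the hypoxia genes, beside 0.03 over all genes. Hk2 was at 20.96 CPM in FLASH and 29.0 CPM in standard cells, with log2 ratios of -2.29 (-2.63 to -1.98) and -1.96 (-2.26 to -1.69). Hk1 was at 14.6 and 14.5 CPM, with log2 ratios of 1.64 and 2.03. Ldha was at 57.0 and 69.9 CPM, with log2 ratios of -2.00 and -1.71, while Ldhb was at 306 and 337 CPM, with log2 ratios of 0.94 and 0.96. So within each pair one gene was lower and its partner higher in step 2.

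The remaining step 2 calls divided by place in the pathway. Of the upper pathway, 4 of 8 genes rose and 1 fell: Hk1, Pfkm, Pfkp and Tpi1 rose, Tpi1 to 101 and 107 CPM, against 45.2 and 52.1 CPM, Pfkm to 25.4 and 25.6 CPM, against 11.7 and 10.0 CPM, and Pfkp to 13.9 and 11.6 CPM. Of the lower pathway, 4 of 5 fell and 0 rose: Gapdh was at 554 and 550 CPM, against 962 and 965 CPM, Pkm at 180 and 174 CPM, against 336 and 330 CPM, Eno1 at 53.9 and 42.7 CPM, and Pgam1 at 110 and 113 CPM. The transporters divided too: Slc2a3, the high-affinity glucose transporter of neurons, was at 15.6 and 14.8 CPM, against 10.2 and 9.24 CPM, while Slc2a1 was lower, at 2.19 and 2.64 CPM, and so was Slc16a1, at 3.41 and 5.54 CPM, against 15.4 and 10.9 CPM. Bnip3 was at 24.9 and 30.6 CPM, with log2 ratios of 1.07 and 1.16, and Vegfa at 2.44 and 2.11 CPM, with log2 ratios of -2.14 and -2.16. Among the further pathway genes 3 of 17 on the glycolysis side rose and 4 fell, and 4 of 26 on the hypoxia side rose and 5 fell. Pgm2, a phosphoglucomutase, was at 37.3 and 26.1 CPM, against 2.92 and 3.32 CPM, and Cxcr4, the chemokine receptor of granule progenitors, at 1.71 and 1.58 CPM, against 50.8 and 64.1 CPM. Mif fell to 204 and 186 CPM, against 704 and 700 CPM.

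Later granule neurons were few, and 27.4% of all genes rose and 16.8% fell in them; 6 glycolysis genes of 18 rose and 6 fell. Hk1 was at 88.1 CPM in FLASH and 50.5 CPM in standard cells and Pfkp, the phosphofructokinase of platelets and brain, at 119 and 84.2 CPM, on 20 and 12 and on 27 and 20 UMIs. Slc2a3, Pfkl, Pfkm and Tpi1 also rose, Tpi1 to 167 and 130 CPM, and Hk2, Gapdh, Pgam1, Eno1, Pkm and Ldha fell, Hk2 to 26.4 and 29.5 CPM and Gapdh to 502 and 362 CPM. Eno2, which did not reach 100 UMIs in this comparison, was at 22.0 and 42.1 CPM. Several calls rest on very few UMIs: Pfkl on 5 in each library, Bnip3 on 5 and 6, and Vegfa on 0 and 1, and these 3 changed direction with the 5 richest cells left out or with 5 counts added. The glycolysis median of 0.12 was -1.36 without the 5 richest cells of each member, and the erythroid marker list summed to 1194 CPM in FLASH and 88.4 CPM in standard later granule neurons, whose part in these values was not tested.

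The DNA upstream of these genes was taken from RefSeq (GRCm38.p6). HIF binds the core letters ACGTG and GCGTG, and both were searched on both strands in the 250 bases before each transcription start; CACGTG holds ACGTG on both strands and counts as a match on each. Promoters were found for 29 of the 32 members, 42 promoters in all, of which 33 (78.6%) held at least 1 match and 21 at least 2. Of all 32851 promoters of the same length, 38.6% held at least 1 match and 16.7% at least 2. The members' promoters averaged 60.9% G and C, against 53.2% for all, and the part of base composition in the share was not tested. The upstream 250 bases of Hk2 and Ldha, which fell in step 2, and of Ldhb and Bnip3, which rose, are printed 5′ to 3′ on each gene's own strand, with the matches in capitals (CACGT and CACGC are the same cores read on the other strand).
Hk2: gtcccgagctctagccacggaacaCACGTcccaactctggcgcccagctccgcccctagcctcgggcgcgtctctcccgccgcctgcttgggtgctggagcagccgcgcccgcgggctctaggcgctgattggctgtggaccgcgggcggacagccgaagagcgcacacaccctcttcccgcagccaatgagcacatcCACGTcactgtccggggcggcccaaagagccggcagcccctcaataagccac
Ldha: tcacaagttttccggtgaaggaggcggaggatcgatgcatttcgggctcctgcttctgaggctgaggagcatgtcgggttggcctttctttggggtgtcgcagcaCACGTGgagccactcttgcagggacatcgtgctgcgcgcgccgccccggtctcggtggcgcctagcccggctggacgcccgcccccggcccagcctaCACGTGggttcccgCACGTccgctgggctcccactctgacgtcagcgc
Ldhb: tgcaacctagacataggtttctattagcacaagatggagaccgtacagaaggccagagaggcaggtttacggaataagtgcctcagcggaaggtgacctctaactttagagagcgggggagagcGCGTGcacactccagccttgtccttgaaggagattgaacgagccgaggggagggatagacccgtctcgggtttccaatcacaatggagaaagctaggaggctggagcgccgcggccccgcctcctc
Bnip3: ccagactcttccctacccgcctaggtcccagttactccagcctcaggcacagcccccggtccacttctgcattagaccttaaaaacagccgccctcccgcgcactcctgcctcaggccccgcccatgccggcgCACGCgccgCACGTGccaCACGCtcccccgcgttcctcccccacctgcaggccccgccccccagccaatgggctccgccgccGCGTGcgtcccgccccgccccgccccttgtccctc

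Hk2 lies on the minus strand at chr6:82774455-82774704 with 2 matches, Ldha on the plus strand at chr7:46845554-46845803 with 5, Ldhb on the minus strand at chr6:142507958-142508207 with 1, and Bnip3 on the minus strand at chr7:138909507-138909756 with 5. RefSeq gives Ldha another start, whose upstream stretch at chr7:46846832-46847081 holds 1 match, as many as that of Ldhb; the stretch with more matches is the one printed. The genes that fell and those that rose in step 2 both include a promoter with 5 matches.

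Isozyme shares put the same switch on a scale that does not depend on the total of a cell, as the part of 1 gene among the UMIs of its pair. Since 3′ UMIs are not scaled by length and capture differs between genes, the shares were compared between classes and not read as protein ratios. Hk2 made up 95.6% (94.5 to 96.6) of hexokinase UMIs in FLASH and 97.0% (96.0 to 97.8) in standard non-cycling progenitors. It made up 76.1% and 84.2% in step 1, 58.9% (50.5 to 67.0) and 66.7% (58.9 to 73.8) in step 2, and 23.1% and 36.8% of 26 and 19 UMIs in later granule neurons. Ldhb made up 41.2% and 43.0% of lactate dehydrogenase UMIs in non-cycling progenitors, 68.3% and 66.6% in step 1, and 84.3% (82.3 to 86.1) and 82.8% (80.9 to 84.7) in step 2. In G2 and mitosis the Hk2 share was 97.8% and 98.7% and the Ldhb share 38.2% and 37.7%, close to non-cycling progenitors although Ldha and Ldhb both fell there.

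**Figure D3:**
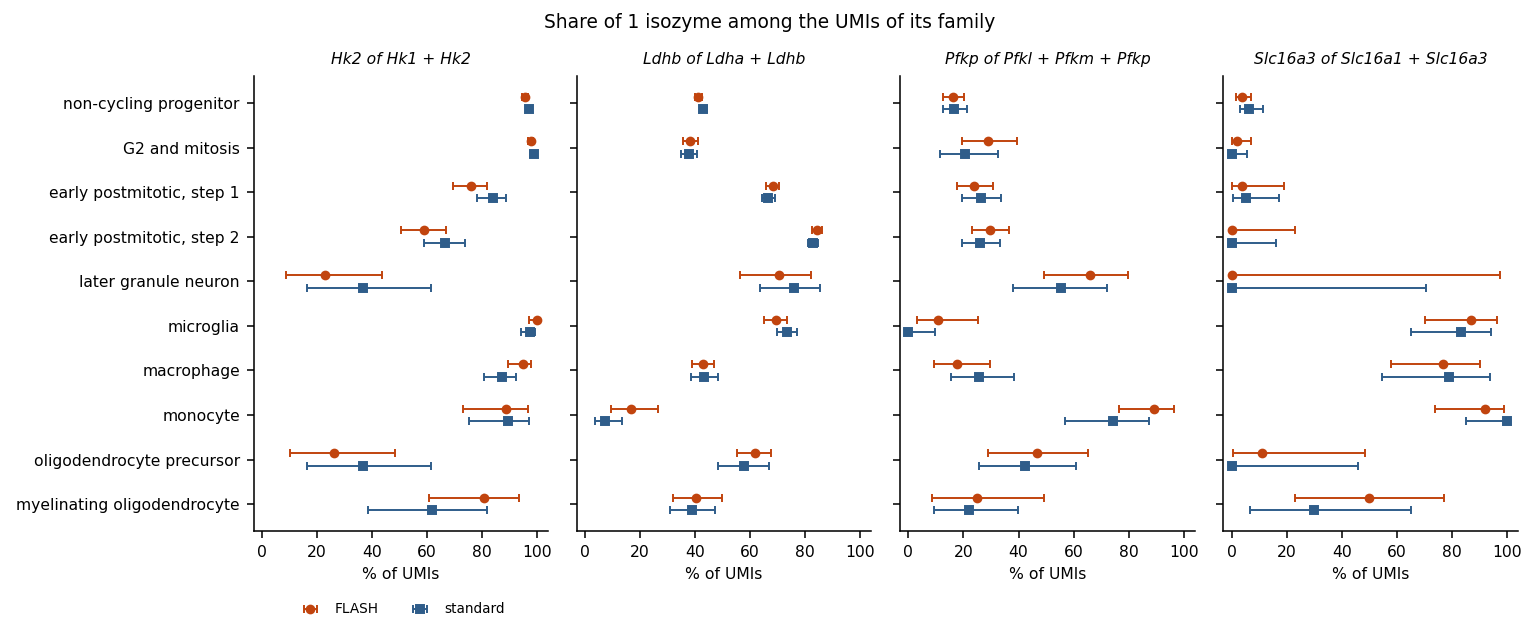
Share in percent (x axis, 0 to 100) of Hk2 in Hk1 and Hk2, Ldhb in Ldha and Ldhb, Pfkp in the 3 phosphofructokinase genes, and Slc16a3 in Slc16a1 and Slc16a3, for 10 classes (y axis), FLASH above standard, with exact 95% binomial intervals. From non-cycling progenitors to step 2 the Hk2 share drops and the Ldhb share climbs, and Slc16a3 makes up most of its pair in microglia, macrophages and monocytes, in both libraries.

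Myeloid cells, which here hold microglia, macrophages and monocytes, differed from the tumour lineage more in some isozyme shares than in others. With both libraries together and over the processing settings tried, the Hk2 share was 94.0 to 95.1% in myeloid and 94.0 to 94.9% in tumour-lineage cells. By library, myeloid cells had 284 Hk2 and 11 Hk1 UMIs in FLASH, and 347 and 26 in standard cells. Tumour-lineage cells had 4515 and 284 UMIs in FLASH, and 4169 and 202 in standard cells. The myeloid share thus lay above that of the tumour lineage in FLASH and below it in standard cells. The Ldhb share was 49.2 to 53.6% in myeloid and 47.2 to 51.0% in tumour-lineage cells, and the ends of each range come from different settings. In the main setting Ldhb outnumbered Ldha in myeloid cells, with 632 against 588 UMIs in FLASH and 646 against 522 in standard cells. In the tumour lineage Ldhb had fewer UMIs than Ldha, 6721 against 7532 in FLASH and 6314 against 6876 in standard cells. Against tumour-lineage cells, 17.7% of all genes rose and 50.6% fell in myeloid cells, and the median over all genes was -0.77; 9 of the 20 glycolysis genes with 100 UMIs rose and 3 fell (median log2 ratio 0.54), and 5 of 9 hypoxia genes rose and 1 fell (median 1.08). The log2 ratio of the hypoxia sum was only 0.05 (-0.05 to 0.14) in FLASH and 0.09 (-0.005 to 0.19) in standard cells. Aldoa was at 374 CPM in FLASH and 335 CPM in standard myeloid cells, against 139 and 151 CPM in the tumour lineage, with log2 ratios of 1.42 and 1.15. Tpi1 was at 221 and 193 CPM, against 49.7 and 53.0 CPM, with log2 ratios of 2.15 and 1.86. Gpi1 rose to 158 and 184 CPM, Pfkp to 24.7 and 20.3 CPM, Aldoc to 4.85 and 9.68 CPM and Ldhb to 279 and 313 CPM, while Gapdh, at 1197 and 1087 CPM, and the rest of the lower pathway did not pass 1.5-fold.

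Transporters and phosphofructokinases differed by isozyme. Slc16a3, the MCT4 lactate exporter of highly glycolytic cells, was at 32.2 CPM in FLASH and 30.5 CPM in standard myeloid cells, against 0.379 and 0.432 CPM in the tumour lineage; it reached 100 UMIs only through the myeloid cells and so had to differ. Its share of both transporters was 84.9% (75.5 to 91.7) and 87.5% (77.6 to 94.1) in myeloid cells, against 2.67% and 3.51% in the tumour lineage. Slc2a1, the glucose transporter of barriers and many cell types, was at 19.8 and 17.9 CPM, against 4.87 and 5.19 CPM, and Slc2a3 at 2.65 and 2.42 CPM, against 12.01 and 11.6 CPM. Slc16a1 fell to 5.73 and 4.35 CPM, against 13.8 and 11.9 CPM. Pfkl, the liver-type phosphofructokinase, was at 37.0 and 41.1 CPM, against 9.46 and 8.60 CPM, with log2 ratios of 1.98 and 2.26, whereas Pfkm, the muscle form, was at 2.20 and 3.39 CPM, against 11.8 and 11.5 CPM. Pfkm thus made up 3.45% and 5.22% of phosphofructokinase UMIs in myeloid cells, against 42.1% and 43.4% in the tumour lineage. Levels of Slc2a3, Pfkm and Slc16a1 in myeloid cells rest on 5 to 13 UMIs, and granule progenitor markers were also detected there at the 218 and 223 CPM given above; the part of free tumour RNA in these low levels was not tested.

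On the hypoxia side, Pdk1 was at 13.2 CPM in FLASH and 23.7 CPM in standard myeloid cells, against 1.45 and 1.30 CPM in the tumour lineage, and P4ha1 at 85.5 and 84.2 CPM, against 23.4 and 28.5 CPM. Bnip3 rose to 21.2 and 29.0 CPM and Ankrd37 to 11.9 and 9.19 CPM. Egln3 was called too, at 4.85 and 1.94 CPM on 11 and 4 UMIs; it reached 100 UMIs only through the myeloid cells, and its log2 ratio was -0.37 without the 5 richest cells. Egln1 was the gene that fell, to 47.6 and 43.1 CPM, against 97.6 and 95.6 CPM. Among the further pathway genes 5 of 20 on the glycolysis side rose and 6 fell, and 5 of 29 on the hypoxia side rose and 12 fell. Pfkfb3, which makes the activator of phosphofructokinase, was at 37.0 and 39.7 CPM, against 5.24 and 6.26 CPM, and Anxa2, an annexin, at 171 and 125 CPM, against 0.379 and 0.331 CPM.

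Myeloid subtypes were not alike. Hk2 was at 190 CPM in FLASH and 260 CPM in standard microglia (113 and 142 cells). Ldhb was at 526 and 598 CPM in microglia, against 49.0 and 41.2 CPM in monocytes (60 and 36 cells). Monocytes had the highest Slc16a3, at 80.5 and 105 CPM, and Slc2a1, at 59.5 and 82.4 CPM, of the 3 subtypes, and their Pfkp was at 144 and 119 CPM and their Hif1a at 245 and 210.5 CPM. The Ldhb share of lactate dehydrogenase UMIs was 69.2% (64.9 to 73.2) in FLASH and 73.4% (69.7 to 76.8) in standard microglia, 42.8% and 43.3% in macrophages, and 16.7% (9.42 to 26.4) and 7.38% (3.43 to 13.5) in monocytes. Microglia and monocytes thus lay on opposite sides of macrophages in both libraries.

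Between the libraries, 0 of the 18 members with 100 UMIs were called in myeloid cells, against 2.56% of all genes. Medians of the log2 ratio were 0.08 over 13 glycolysis and 0.01 over 5 hypoxia genes, the sum of the hypoxia list lying at -0.03. The glycolysis sum was 0.07 (0.03 to 0.12) on the log2 scale. Bnip3, on 108 UMIs, had the log2 ratio furthest from 0, at 21.2 CPM in FLASH and 29.0 CPM in standard myeloid cells, -0.45 with an interval of -1.03 to 0.12 that included 0. Hk2 came next, at 125 CPM in FLASH and 168 CPM in standard myeloid cells, a log2 ratio of -0.42 (-0.65 to -0.19). Microglia, the subtype with the highest Hk2, were 113 of 317 FLASH and 142 of 303 standard myeloid cells, and the part of this mix in the Hk2 difference was not tested. Eno1 was at 117 CPM in FLASH and 91.0 CPM in standard myeloid cells. In the 60 FLASH and 36 standard monocytes, Ldha was at 245 and 517 CPM and Pgam1 at 154 and 325 CPM, on 70 and 113 and on 44 and 71 UMIs.

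**Figure D4:**
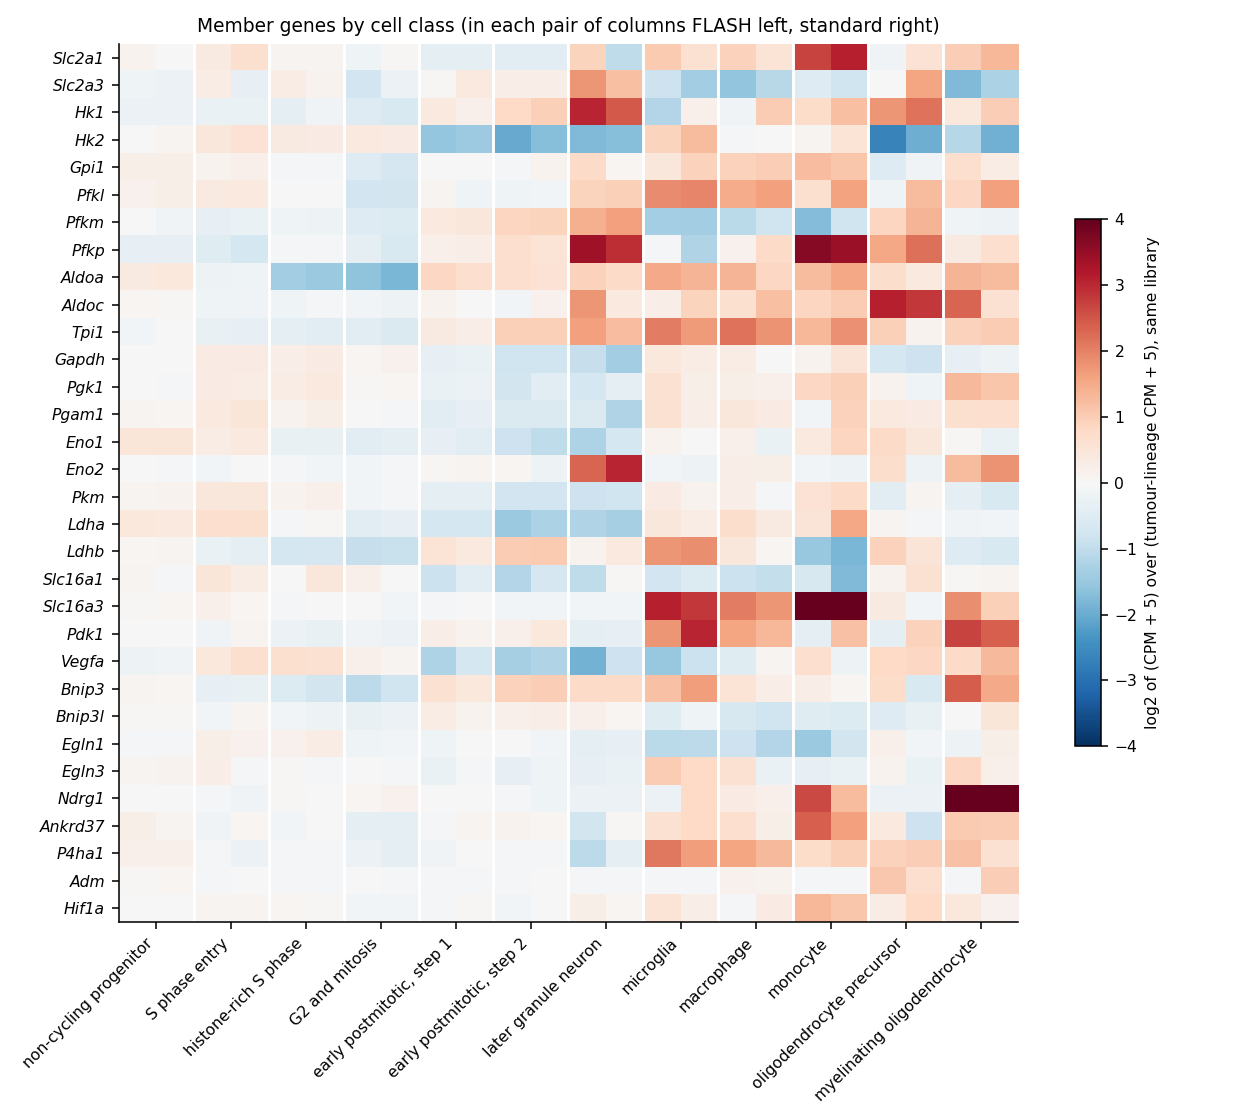
Heat map of log2 of (CPM + 5) in each class over (CPM + 5) in the tumour lineage of the same library, for the 32 members (rows) in 12 classes with FLASH left of standard (columns), colour limited at 4 in either direction. Ndrg1 in myelinating oligodendrocytes exceeds the colour limit in both libraries and Slc16a3 in monocytes reaches 3.99 in FLASH and 4.34 in standard cells. Other dark cells of the map include Pfkp in monocytes and later granule neurons and Aldoc in oligodendrocyte precursors.

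Oligodendrocyte-lineage cells had the highest hypoxia-list sum of the 3 large classes, 624 CPM in FLASH and 751 CPM in standard cells, beside 445 and 453 CPM in myeloid and 431 and 425 CPM in tumour-lineage cells. Against the tumour lineage, where 21.6% of all genes rose and 20.6% fell, 9 of 19 glycolysis genes rose and 1 fell (median log2 ratio 0.56), and 7 of 10 hypoxia genes rose and 0 fell (median 1.30), beside -0.05 over all genes. The log2 ratio of the glycolysis sum was only 0.07 (0.01 to 0.13) in FLASH and 0.05 (-0.01 to 0.11) in standard cells. Gapdh was lower, at 678 and 727 CPM, against 963 and 962 CPM. Without Gapdh the sum gave 0.36 and 0.29. Ndrg1, a gene of myelinating glia that is also a hypoxia target, was at 83.0 CPM in FLASH and 157 CPM in standard oligodendrocyte-lineage cells, against 0.826 and 0.941 CPM in the tumour lineage. These 83.0 and 157 CPM are part of the hypoxia-list sums of 624 and 751 CPM, and Ndrg1 reached 100 UMIs only through this class. Pdk1 was at 18.0 and 20.5 CPM, Bnip3 at 49.99 and 32.6 CPM, Vegfa at 27.0 and 31.4 CPM and P4ha1 at 54.0 and 51.9 CPM. Egln3, on 4 and 1 UMIs and at 100 UMIs only with these, and Ankrd37, on 9 and 7, are called but have intervals that include 0 in at least 1 library, and both changed direction without the 5 richest cells.

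On the glycolysis side Hk2 fell to 27.0 CPM in FLASH and 24.1 CPM in standard oligodendrocyte-lineage cells, against 101 and 106 CPM, and Hk1 rose to 22.0 and 24.1 CPM, against 6.34 and 5.14 CPM. Aldoc was at 41.0 and 19.3 CPM, against 1.65 and 1.98 CPM, and Aldoa at 295 and 309 CPM. Pgk1, the ATP-forming kinase, was at 176 and 162 CPM and Tpi1 at 100.0 and 92.9 CPM, and Slc2a1, Pfkl, Pfkm and Pfkp also rose, to at most 33.8 CPM. Of the further pathway genes 8 of 19 on the glycolysis side rose and 3 fell, and 3 of 27 on the hypoxia side rose and 9 fell. The Ldhb share was 61.6% (55.1 to 67.7) in FLASH and 57.8% (48.2 to 66.9) in standard precursors, and 40.5% (31.8 to 49.6) and 38.7% (30.7 to 47.3) in myelinating cells, as told apart within the class by a finer clustering (resolution 2). Bpgm, the bisphosphoglycerate mutase, was at 155 and 153 CPM, against 25.6 and 24.7 CPM.

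Eno1 and Ndrg1 were the members called between the libraries in oligodendrocyte-lineage cells, where 4.16% of all genes were higher and 2.92% lower in the FLASH library. Eno1 was at 140 CPM in FLASH and 93.0 CPM in standard cells, a log2 ratio of 0.59 (0.18 to 1.01), and Ndrg1 at 83.0 and 157 CPM, a log2 ratio of -0.92 (-1.33 to -0.51). The log2 ratio of the hypoxia-list sum, which includes Ndrg1, was -0.27 (-0.43 to -0.10), and that of the glycolysis sum 0.01 (-0.08 to 0.09). The make-up of the class differed: when its cells were told apart by the finer clustering, 89 FLASH and 46 standard cells resembled precursors and 73 and 72 resembled myelinating cells. In myelinating cells Ndrg1 was at 170 and 242 CPM, and in precursors it had 0 UMIs in both libraries, which allows up to 5.87 CPM in FLASH and 10.3 CPM in standard cells. The erythroid marker list summed to 3877 CPM in FLASH and 48.3 CPM in standard oligodendrocyte-lineage cells, and its part in the called members was not tested.

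Smaller classes were too few for calls. In 50 FLASH and 33 standard endothelial cells, Slc2a1, the glucose transporter of the blood-brain barrier, was at 1330 and 793 CPM, with exact Poisson intervals of 1163 to 1515 and 659 to 947 CPM. Slc16a1 was at 2013 and 2074 CPM there, and Slc2a3 and Slc16a3 had 0 UMIs. Adm, a vasodilator peptide that reached only 19 UMIs in the whole tumour lineage, was at 87.5 and 58.5 CPM in endothelial cells, and Ndrg1 at 99.2 and 45.5 CPM. In 16 FLASH and 6 standard astrocytes, Aldoc was at 1339 and 632 CPM and made up 82.6% (75.4 to 88.4) and 54.3% (36.6 to 71.2) of aldolase UMIs. Slc16a3 was at 91.1 and 109 CPM in neutrophils.

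Tumour-lineage cells with UMIs of 8 chosen hypoxia targets did not have higher summed glycolysis levels than cells without them. Each tumour-lineage cell was thinned to 2000 UMIs, which left out 407 FLASH and 404 standard cells, and cells were grouped by the UMIs of 8 hypoxia targets together. The targets were Vegfa, Bnip3, Egln3, Ndrg1, Ankrd37, P4ha1, Adm and Pdk1, without the more abundant Bnip3l and Egln1. In 6203 FLASH cells (89.4%) and 4953 standard cells (88.5%) the targets had 0 UMIs. Bnip3l and Egln1 still had 2370 and 1200 UMIs in the FLASH cells and 1784 and 927 in the standard cells of this group. Glycolysis genes summed to 2362 and 2345 CPM in these cells, to 2295 and 2228 CPM in the 688 and 591 cells with 1 UMI, and to 2175 and 1906 CPM in the 40 and 48 cells with 2. Over the whole list, cells with at least 1 target UMI over cells with 0 gave log2 ratios of -0.04 (-0.10 to 0.01) in FLASH and -0.09 (-0.15 to -0.03) in standard cells. Gapdh itself gave -0.11 (-0.20 to -0.03) in FLASH and -0.20 (-0.30 to -0.11) in standard cells. Without Gapdh the list summed to 1445 CPM in FLASH and 1450 CPM in standard cells with 0 target UMIs and to 1448 and 1449 CPM in cells with 1, so nearly all of the difference between these groups lay in Gapdh. In the few cells with 2 target UMIs the sum without Gapdh was 1288 CPM (1051 to 1561) in FLASH and 1156 CPM (951 to 1392) in standard cells. Only 5 FLASH and 3 standard cells had 3 or more target UMIs. S phase entry markers summed to 860 CPM in FLASH and 807 CPM in standard cells with 0 target UMIs and to 960 and 805 CPM in cells with 1, and their part in the glycolysis sums was not tested. The groups also pool all tumour states, which differ in Gapdh and Bnip3 as given above, and the part of the mix of states was not tested. They are ranges of a sparse count, and a cell with 0 target UMIs may still express a target.

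**Figure D5:**
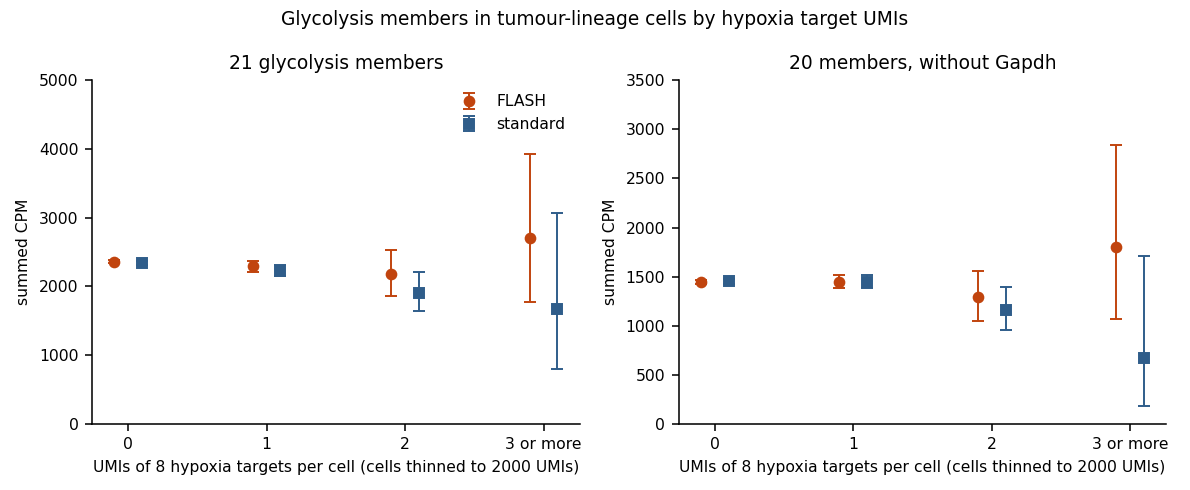
Summed CPM of the glycolysis list, with Gapdh on the left and without it on the right (y axes, from 0), in tumour-lineage cells thinned to 2000 UMIs, grouped by the UMIs of 8 hypoxia targets per cell (x axis), FLASH left of standard, with exact Poisson 95% intervals. With Gapdh the sums lie at 2362 and 2345 CPM in cells with 0 target UMIs and at 2295 and 2228 CPM in cells with 1, without it at 1445 and 1450 CPM and at 1448 and 1449 CPM, and the bin of 3 or more holds 5 and 3 cells.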

How the data were processed

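Gene counts per barcode were deposited by the authors as raw UMI counts for 2 libraries; Cell Ranger 6.1.2 is named per the file headers and mm10 per the submitters' processing notes, and later steps by the authors, if any, were not stated. Barcodes with at least 500 genes and at most 10% mitochondrial UMIs were kept (10366 FLASH and 8461 standard). The automatic Scrublet cutoff marked 0 and 0 doublets, so the highest-scoring cells at 0.8% per 1000 cells were removed, 860 (8.30%) and 573 (6.77%). Cells were clustered with scanpy 1.11.5 and leidenalg 0.10.2 at resolution 1, on 2000 variable genes from which the members and pathway lists were left out, 30 principal components and 15 neighbours. Classes were named from marker lists, with cutoffs set after seeing the data. Members and lists were chosen with earlier results of these data known. UMIs were summed per class and library, scaled to CPM and compared as log2 ratios after adding 0.5 counts, with exact conditional binomial, Poisson or Clopper-Pearson 95% intervals (scipy 1.17.1), which cover counting error only. No test across libraries was possible, with 1 library per group. The genes named are the members called, the 4 members with the largest log2 ratio in a comparison, members of isozyme pairs and, of the other pathway lists, examples from the 4 largest. Aldoa stands on 2 gene IDs, of which the one with 15503 UMIs was used and the other, with 18, was not. Aldoa, Gapdh, Pgk1, Pgam1, Ldha and Bnip3l have annotated pseudogene copies, so their counts are uncertain where reads could be divided among copies, and 3′ counts do not tell the Pkm isoforms apart. The ratio and interval steps were tested on simulated class totals drawn as Poisson counts, and the summing over cells was not. The intervals assume the same kind of counting error, so the test says nothing about other spread.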

Additional observations from a re-analysis of the deposited data

Results flagged for a closer look

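Some members leaned one way in one class and the other way in another class, with counting intervals on opposite sides of 0; the difference between the classes was not tested, and none of the values passed 1.5-fold. Aldoa had a log2 ratio of FLASH over standard of -0.115 in tumour-lineage and 0.157 in myeloid cells, and Tpi1 of -0.0921 in tumour-lineage and 0.198 in myeloid cells. Ldhb had log2 ratios of -0.0984 in tumour-lineage, -0.165 in myeloid and 0.439 in oligodendrocyte-lineage cells, so it is named for 2 pairs of classes. Bnip3l had log2 ratios of 0.0622 in tumour-lineage and -0.449 in oligodendrocyte-lineage cells.

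Barcodes left out for more than 10% mitochondrial UMIs (2503 FLASH and 2585 standard) also carried the members. Among their non-mitochondrial UMIs the glycolysis list summed to 1749 CPM in FLASH and 1550 CPM in standard barcodes and the hypoxia list to 355 and 351 CPM. Barcodes that passed the filters held 2580 CPM of the glycolysis list in both libraries, and 452 and 450.3 CPM of the hypoxia list, on the same scale.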

How the results depend on the processing

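The glycolysis median of FLASH over standard in tumour-lineage cells lay between -0.04 and 0.00 and the hypoxia median between 0.00 and 0.02 over 14 alternatives. In myeloid cells they lay between -0.01 and 0.13 and between -0.09 and 0.06 over 13. Of 396 list medians, counts and isozyme shares, 372 were scored as kept. Counts had to stay within 1.5-fold and shares within the main interval. A list median could move by the median half-width of its members' counting intervals, a wide allowance where UMIs are few. By this rule the hypoxia median in later granule neurons was kept in 8 of 8 alternatives, although it ran from -1.14 to 0.43. With at least 20 UMIs, 1 member (Eno2, on 19 FLASH and 29 standard UMIs, log2 ratio -0.79 with an interval of -1.71 to 0.09) was called in the tumour lineage in place of 0. With cells thinned to 2000 UMIs, the glycolysis median was 0.054 in S phase entry and -0.79 in G2 and mitosis, and the hypoxia median 0.63 in myeloid and 0.71 in oligodendrocyte-lineage cells. Shares after thinning were 94.0% for Hk2 and 51.0% for Ldhb in the tumour lineage, 47.2% for Pfkp in myeloid cells, and in the oligodendrocyte lineage 12.3% for Aldoc, 3.17% for Eno2, 59.3% for Ldhb, 77.8% for Slc2a3 and 84.8% for Bnip3l; at most 5% mitochondrial UMIs gave 49.2% for Ldhb in myeloid cells. With the 5 richest cells for each member left out, an alternative chosen after seeing the data, the glycolysis median was -0.042 in S phase entry, -0.78 in G2 and mitosis, -1.36 in later granule neurons and 0.073 in the oligodendrocyte lineage, and the hypoxia median 0.47 in myeloid and 0.61 in oligodendrocyte-lineage cells. The same step turned Pfkl to -2.27 and Bnip3 to -2.49 in later granule neurons, Egln3 to -0.37 in myeloid and -0.85 in oligodendrocyte-lineage cells, and Ankrd37 to -0.32 in oligodendrocyte-lineage cells; fewer UMIs remain by construction. Vegfa in later granule neurons became 1.11 with 5 counts added. With doublets kept the G2 and mitosis glycolysis median was -0.30. Centring on the median of all genes, -0.77 in the myeloid comparison, gave myeloid medians of 1.30 for glycolysis and 1.84 for hypoxia. With at least 20 UMIs the myeloid hypoxia median was 1.55. For changes other than centring, the 5 added counts, 20 UMIs or removed cells, the cause was not tested. Several alternatives left under 50 later granule neurons in a library and gave no value there. No paired analysis was possible because each irradiation mode has 1 library and the labels give no replicate numbers.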
